A study of Homo sapiens with 6 samples.

Results

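The BCL2 family decides whether the mitochondrial outer membrane stays closed or is opened during apoptosis, and 10 of its genes were followed here over 6 RNA sequencing libraries of human thyroid cancer cell lines. The genes were taken by name from the 58884 gene identifiers of the deposited expression table: BCL2, BCL2L1, MCL1 and BCL2A1 as protective members, BAX and BAK1 as effectors, and BBC3, PMAIP1, BCL2L11 and BID as BH3-only members. The study asked what the retinoic acid-binding protein CRABP2 does in thyroid cancer cells, by lowering it in BHT-101 and FTC-133 and raising it in 8505C. BHT-101 and 8505C are established lines from anaplastic thyroid carcinoma and FTC-133 is an established line from follicular thyroid carcinoma. BHT-101 and FTC-133 each gave 1 library after a control siRNA (siControl) and 1 after a CRABP2 siRNA (siCRABP2). 8505C gave 1 library with an empty vector and 1 with a CRABP2 expression vector. No genotype, time after transfection, siRNA sequence or vector promoter is given in the sources used here, nor whether the 8505C cells were a clone or a pool.

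The protective members bind the other members of the family and hold them inactive. The effectors, once activated, assemble into pores that release cytochrome c, which starts the caspase cascade. BH3-only proteins are the sensors: each carries a short helix, the BH3 domain, that fits the groove of the protective proteins, and some of them also activate the effectors directly. BBC3 encodes PUMA and PMAIP1 encodes NOXA, both known as targets of p53 and of stress pathways. BCL2L11 encodes BIM, and BID links death receptors to mitochondria. NOXA is known to bind chiefly MCL1 and BCL2A1, so the levels of these genes are often read together.

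The shared feature of the family can be seen in the coding sequences. The core of a BH3 domain is a leucine codon, 3 codons for any residue, a glycine or alanine codon and an aspartate codon, 18 bases in all. This run was found once in the GENCODE 29 coding sequence of 9 of the 10 members and not in that of BCL2A1. The cores are shown because they set the members side by side. Capitals mark the leucine codon and the last pair of codons.
BCL2: CTCcgccaggccGGCGAC
BCL2L1: CTGagggaggcaGGCGAC
MCL1: TTAcgacgggttGGGGAT
BAX: CTCaagcgcatcGGGGAC
BAK1: CTCgccatcatcGGGGAC
BBC3: CTGcggcggatgGCGGAC
PMAIP1: CTCaggagatttGGAGAC
BCL2L11: TTGcggcgtattGGAGAC
BID: CTCgcccaggtcGGGGAC
BBC3 has an alanine codon in the fifth place and the other 8 have a glycine codon. On GRCh38 the core of BCL2 lies at chr18:63318361-63318378 in exon 2, that of BCL2L1 at chr20:31721934-31721951 in exon 2 and that of MCL1 at chr1:150578877-150578894 in exon 1, all on the minus strand. The core of BAX lies at chr19:48955787-48955804 in exon 3 on the plus strand, and that of BAK1 at chr6:33575399-33575416 in exon 4 on the minus strand. Among the BH3-only members, the core of BBC3 lies at chr19:47226591-47226608 in exon 3 (minus strand), of PMAIP1 at chr18:59902673-59902690 in exon 2 (plus strand), of BCL2L11 at chr2:111150103-111150120 in exon 4 (plus strand) and of BID at chr22:17739427-17739444 in exon 4 (minus strand). Exons are numbered along the transcript used for each gene.

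The values are FPKM, fragments or reads scaled to exon length and to library depth, so levels of different genes can be compared. The read totals recovered from them ran from 22084110 to 27958622 per library. CRABP2 was at 27.3 FPKM with siControl and 11.4 with siCRABP2 in BHT-101, at 8.94 and 0.170 in FTC-133, and, in 8505C, at 0.607 under the empty vector and 38.0 under the CRABP2 one, in the direction of the labels. Of 7 thyroid markers, none reached 1 FPKM in BHT-101 (5 were at 0 in each of its libraries), 2 did in FTC-133 and 1 in 8505C. Of 5 epithelial markers, 5, 3 and 2 reached 1 FPKM in these lines. Of 6 leukocyte markers, PTPRC stayed at or below 0.0241 FPKM in all 6 libraries. CD14 stood at 16.4 and 12.9 FPKM in 8505C and at 3.26 and 2.53 in BHT-101, and CD79A at 1.83 and 0.923 in BHT-101. No leukocyte marker reached 1 FPKM in FTC-133. Reads of mitochondrially encoded genes took between 1.61% and 5.43% of a library. In bulk RNA, fewer cells of a kind and less RNA per cell cannot be told apart.

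The main contrast among the members lay between cell lines. 8505C had the highest MCL1, BCL2L1 and BCL2A1 and the lowest BAX, BBC3 and BID in both of its libraries. The death-promoting member BCL2L11 was also highest in both 8505C libraries. BHT-101 had the most BAX and FTC-133 the most BAK1 and BID. MCL1 was the most abundant protective member and PMAIP1 the most abundant death-promoting member in each of the 6 libraries. BCL2, the founding member, was nearly silent in all 3 lines.

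**Figure D1:**
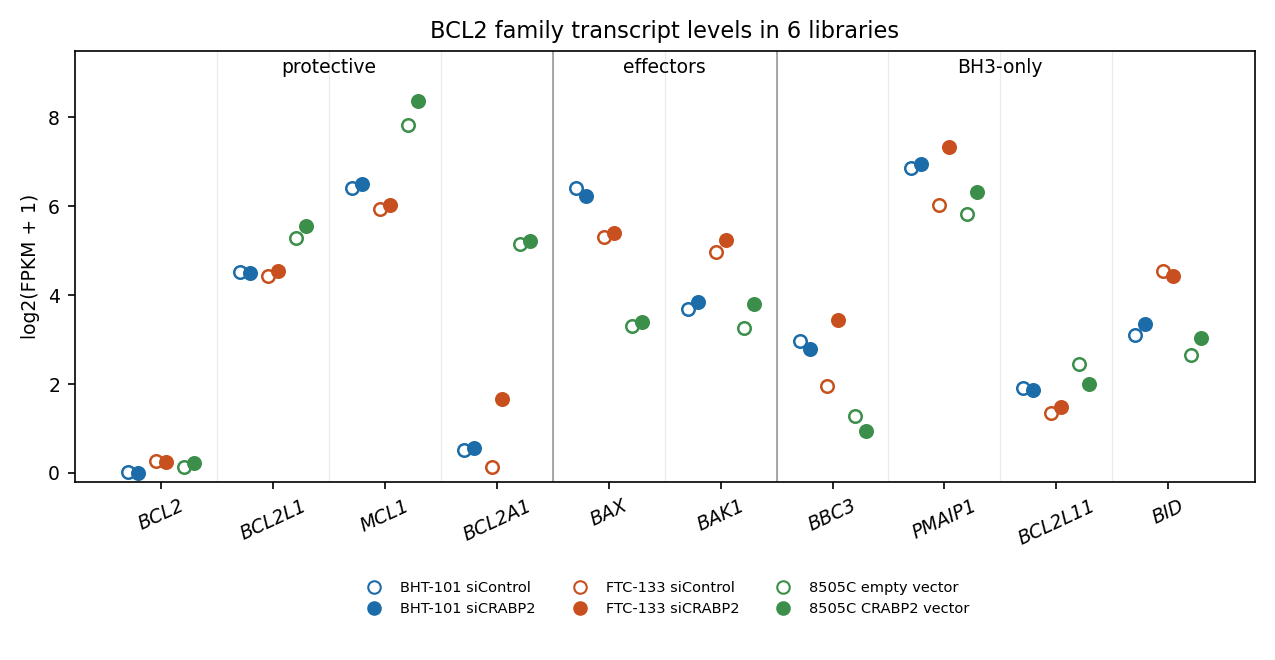
Level of each of the 10 members, as log2(FPKM + 1), in each of the 6 libraries. Open circles are the siControl or empty vector library and filled circles the siCRABP2 or CRABP2 vector library of a line. 8505C stands apart for BCL2A1 and MCL1 (high) and BAX (low), and the largest gaps between open and filled circles are those of BCL2A1, BBC3 and PMAIP1 in FTC-133.

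Differences between lines were tested with limma on log2(FPKM + 1) over 13736 genes, with Benjamini-Hochberg adjustment at 0.05. The 2 libraries of a line, which were treated differently, served as its replicates. No label states that the cultures of a line were separate, so the p-values measure only the spread between these libraries. The contrast of BHT-101 with FTC-133 called 1 of 9 members tested as higher and 2 as lower, beside 18.7% and 30.2% of all genes. For BHT-101 against 8505C, 2 members were higher and 3 lower, beside 32.0% and 30.1% of all genes. In FTC-133 against 8505C, 4 were higher and 4 lower, beside 35.3% and 24.9%. Both counts of lower members against 8505C include BCL2A1, which passed the filter only through the 8505C libraries, where it was high. A call for a member was therefore common among all genes in each contrast. Quantile normalization moved the median difference of all genes in FTC-133 minus 8505C from 0.13 to -0.03 and turned the split of calls from 4850 higher and 3414 lower to 4002 and 4287, with 4 members still higher and 4 lower. In BHT-101 minus FTC-133 it moved that median from -0.16 to -0.04 and the split from 2565 higher and 4152 lower to 3022 and 3303, and members called higher went from 1 to 2 with BCL2L11 (0.64, adjusted p = 0.033, limma).

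Among the protective members, MCL1 (ENSG00000143384, chr1:150574551-150579738, minus strand) encodes a short-lived guardian that many tumour cells rely on. Its level was 84.0 and 89.9 FPKM in BHT-101 with siControl and siCRABP2, 60.5 and 63.8 in FTC-133, and 228 and 328 in 8505C (empty vector, then CRABP2 vector). The lines did not overlap, and 8505C was far above both others. On the log2 scale BHT-101 was below 8505C by a difference of -1.64 (SE 0.20, adjusted p = 0.0007, limma) and FTC-133 by -2.12 (SE 0.20, adjusted p = 0.00029, limma). BHT-101 and FTC-133 differed by 0.48 (SE 0.20), which missed the threshold (adjusted p = 0.091, limma).

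BCL2L1 (ENSG00000171552, chr20:31664452-31723989, minus strand) encodes the protective protein BCL-XL and, by splicing, a shorter death-promoting form that FPKM per gene cannot separate. It was listed at 21.8 and 21.6 FPKM in BHT-101, 20.6 and 22.5 in FTC-133, and 38.0 and 46.3 in 8505C. The first 2 lines overlapped and differed by 0.02 (SE 0.15, adjusted p = 0.944, limma), and 8505C lay above both. BHT-101 minus 8505C was -0.92 (SE 0.15, adjusted p = 0.0022, limma) and FTC-133 minus 8505C was -0.93 (SE 0.15, adjusted p = 0.0022, limma). BCL2L1 shares 1424 exon bases with the antisense gene ABALON, listed at 0.541 to 1.10 FPKM, and without a stated use of strand the reads of the pair cannot be told apart.

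BCL2A1 (ENSG00000140379, chr15:79960889-79971446, minus strand) encodes BFL-1, a protective member known mainly from blood cells and melanoma and induced by NF-kB. It had 10 and 9 reads in BHT-101 (0.428 and 0.482 FPKM), 2 and 49 in FTC-133 (0.0964 and 2.16 FPKM) and 664 and 672 in 8505C (34.8 and 36.4 FPKM). Among the members it had the widest range over the libraries, 5.09 on the log2(FPKM + 1) scale, and in 8505C its FPKM ranked next after that of BCL2L1. BHT-101 minus 8505C was -4.65 (SE 0.45, adjusted p = 0.0003, limma) and FTC-133 minus 8505C was -4.30 (SE 0.45, adjusted p = 0.00044, limma). Only 3 libraries reached 1 FPKM, 2 of them from 8505C, so the gene entered these fits through the line where it was high. BHT-101 minus FTC-133 was -0.35 (SE 0.45, adjusted p = 0.548, limma) and became -1.12 (adjusted p = 0.0039, limma) without the FTC-133 siControl library.

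BCL2 (ENSG00000171791, chr18:63123346-63320128, minus strand) had 5 and 0 reads in BHT-101, 61 and 60 in FTC-133, and 28 and 43 in 8505C. Its highest level was 0.209 FPKM, under the filter of 1 FPKM, so it was not tested. A count of 0 in the BHT-101 siCRABP2 library allows up to 3 reads. In all 6 libraries BCL2 was the lowest of the 10 members or, in the FTC-133 siControl library, the next lowest after BCL2A1.

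The effectors BAX and BAK1 can stand in for each other in many cells. BAX was above BAK1 in 5 libraries, narrowly so in 8505C with the empty vector, and below it in 8505C with the CRABP2 vector. BAX (ENSG00000087088, chr19:48954815-48961798, plus strand), a cytosolic protein that moves to mitochondria on activation, was at 83.6 and 73.8 FPKM in BHT-101, 39.0 and 41.1 in FTC-133, and 8.88 and 9.54 in 8505C. The lines did not overlap, and each differed from its neighbour in the order. BHT-101 minus FTC-133 was 0.96 (SE 0.14, adjusted p = 0.0019, limma), BHT-101 minus 8505C was 2.96 (SE 0.14, adjusted p = 2.5e-05, limma) and FTC-133 minus 8505C was 2.01 (SE 0.14, adjusted p = 0.0001, limma).

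BAK1 (ENSG00000030110, chr6:33572547-33580293, minus strand), the effector that resides on the mitochondrial membrane, was at 11.9 and 13.4 FPKM in BHT-101, 30.2 and 36.7 in FTC-133, and 8.55 and 13.0 in 8505C. FTC-133 was above the other lines, which overlapped. BHT-101 minus FTC-133 was -1.33 (SE 0.22, adjusted p = 0.0034, limma) and FTC-133 minus 8505C was 1.57 (SE 0.22, adjusted p = 0.0013, limma). BHT-101 minus 8505C was 0.24 (SE 0.22, adjusted p = 0.383, limma). BAX made up 87.5% and 84.7% of the summed effector FPKM in BHT-101, 56.3% and 52.8% in FTC-133, and 51.0% and 42.2% in 8505C.

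Among the BH3-only members, PMAIP1 (ENSG00000141682, chr18:59899948-59904306, plus strand) was at 116 and 123 FPKM in BHT-101, 64.7 and 160 in FTC-133, and 55.9 and 79.0 in 8505C. The FTC-133 libraries lay on both sides of the BHT-101 pair, and the FTC-133 siControl library lay between the 8505C pair. No contrast of lines passed: BHT-101 minus 8505C was 0.84 (SE 0.41, adjusted p = 0.119, limma), FTC-133 minus 8505C 0.61 (adjusted p = 0.242, limma) and BHT-101 minus FTC-133 0.23 (adjusted p = 0.672, limma). Without either FTC-133 library the first of these passed (adjusted p = 0.014 in both cases, limma). FTC-133 minus 8505C became 1.25 and passed without the FTC-133 siControl library (adjusted p = 0.0099, limma), and was -0.04 without the siCRABP2 library.

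BBC3 (ENSG00000105327, chr19:47220822-47232766, minus strand) was at 6.84 and 5.94 FPKM in BHT-101, 2.88 and 9.89 in FTC-133, and 1.42 and 0.911 in 8505C. 8505C was lowest without overlap, and the FTC-133 pair enclosed the BHT-101 pair. BHT-101 minus 8505C was 1.78 (SE 0.45, adjusted p = 0.014, limma) and FTC-133 minus 8505C 1.60 (SE 0.45, adjusted p = 0.022, limma). Both calls were lost with no filter on low genes (adjusted p = 0.062 and 0.082, limma). The first was also lost without the BHT-101 siControl library (adjusted p = 0.066, limma) or the 8505C CRABP2 vector library (adjusted p = 0.079, limma), and the second without the 8505C empty vector library (adjusted p = 0.065, limma) or the CRABP2 vector library (adjusted p = 0.108, limma).

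BID (ENSG00000015475, chr22:17734138-17774770, minus strand), which caspase-8 cuts into its active form, was at 7.59 and 9.17 FPKM in BHT-101, 22.3 and 20.7 in FTC-133, and 5.31 and 7.22 in 8505C. FTC-133 was above both other lines, and 8505C was lowest in both of its libraries. BHT-101 minus FTC-133 was -1.27 (SE 0.18, adjusted p = 0.002, limma), FTC-133 minus 8505C was 1.64 (SE 0.18, adjusted p = 0.00053, limma) and BHT-101 minus 8505C was 0.38 (SE 0.18, adjusted p = 0.115, limma). BCL2L11 (ENSG00000153094, chr2:111119378-111168447, plus strand), whose product BIM binds every protective member, was at 2.79 and 2.65 FPKM in BHT-101, 1.55 and 1.78 in FTC-133, and 4.50 and 2.99 in 8505C. The lines did not overlap, 8505C being highest and FTC-133 lowest. FTC-133 minus 8505C was -0.81 (SE 0.19, adjusted p = 0.01, limma). The neighbours in the order did not pass, with BHT-101 minus FTC-133 at 0.48 (adjusted p = 0.078, limma) and BHT-101 minus 8505C at -0.33 (adjusted p = 0.171, limma). BCL2L11 shares 727 exon bases with MIR4435-2HG on the opposite strand, listed at 1.42 to 2.80 FPKM.

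Some of the contrasts between lines moved when 1 library was left out. Without the FTC-133 siCRABP2 library, BBC3 and PMAIP1 were also higher in BHT-101 than in FTC-133, at 0.93 (adjusted p = 0.019, limma) and 0.88 (adjusted p = 0.039, limma). Without either 8505C library, MCL1 (adjusted p = 0.024, limma) and BCL2L11 (adjusted p = 0.034, limma) passed in the same contrast. The count of members called there thus went from 3 to 5 in each of these cases. Without the 8505C CRABP2 vector library, BHT-101 minus 8505C passed for BID at 0.57 (adjusted p = 0.047, limma) and for BCL2L11 at -0.57 (adjusted p = 0.036, limma).

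**Figure D2:**
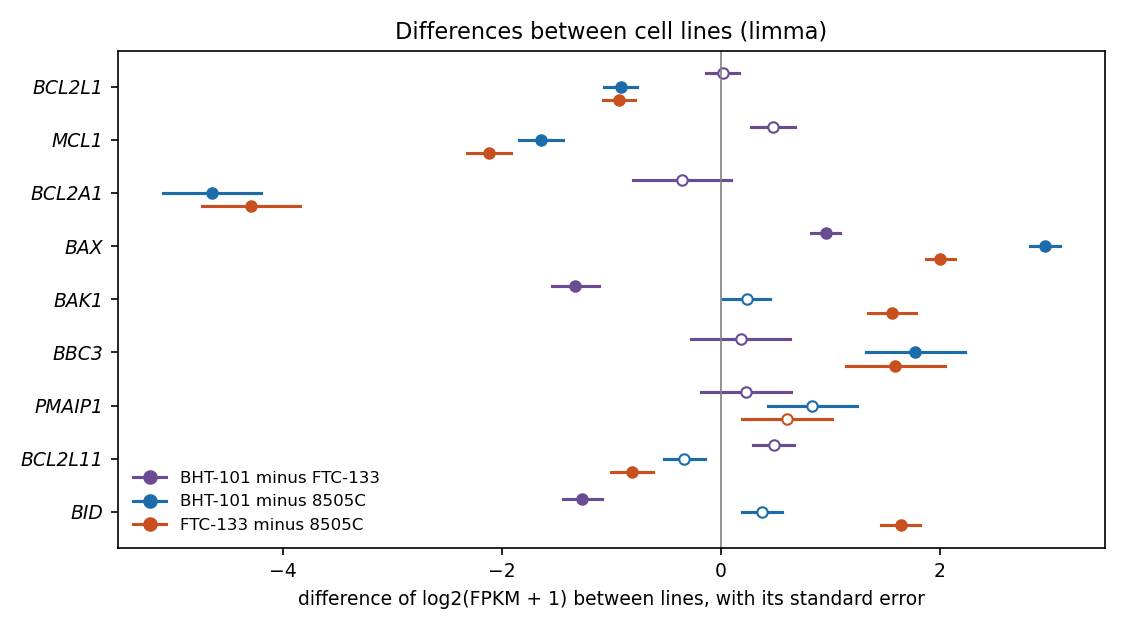
Difference of log2(FPKM + 1) between cell lines for the 9 members tested, with the standard error as a bar. Filled circles passed the adjusted threshold of 0.05 in limma and open circles did not. BCL2A1, MCL1, BCL2L1 and BCL2L11 lie left of 0 in both contrasts with 8505C, and the remaining members lie right of it.

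The FTC-133 library with CRABP2 knocked down held more PMAIP1, BBC3 and BCL2A1 RNA than its control. These 3 of 9 measured members were at least 1 higher on the log2(FPKM + 1) scale in the siCRABP2 library, and none was at least 1 lower. Among all 12832 genes measured in this line, 2.36% were higher by this rule and 2.35% lower. The called members are a pair of BH3-only genes and the protective gene BCL2A1, which counted as measured here only through the siCRABP2 library where it was high. With 1 library in each arm there is no replicate check. The intervals below are exact 95% intervals (Clopper-Pearson) for the read ratio after scaling for depth. They hold counting error alone and set 1 library against another, not a condition against another.

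PMAIP1 had 3588 reads with siControl and 9693 with siCRABP2, a log2(FPKM + 1) difference of 1.29 and a log2 read ratio of 1.30 (interval 1.25 to 1.36). BBC3 had 227 and 855 reads, a difference of 1.49 and a log2 read ratio of 1.78 (interval 1.57 to 2.00). BCL2A1 had 2 and 49 reads, a difference of 1.53 that became 3.52 with a pseudocount of 0.1, and a log2 read ratio of 4.48 (interval 2.55 to 7.57). The first pair of genes was well covered, while the size for BCL2A1 rests on 2 control reads.

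The other members of FTC-133 differed little between the libraries. BAK1 was 0.27 higher with siCRABP2, BCL2L11 0.13, BCL2L1 0.12, MCL1 0.08 and BAX 0.07, and BID was at -0.10. The counting interval excluded 0 for BAK1 (0.19 to 0.37), BCL2L1 (0.03 to 0.22), MCL1 (0.03 to 0.13) and BID (-0.18 to -0.02), and included it for BAX and BCL2L11. Over the 9 measured members the median difference was 0.13, beside -0.04 over all genes. The summed FPKM of 5 proliferation markers was 434 with siControl and 312 with siCRABP2, all 5 being above 1 FPKM in both, and the part of this in the members' values was not tested.

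The promoters of the 3 called members are shown because these genes were higher together. RefSeq promoter windows (GRCh38.p14) run from 250 bases before to 50 after a start site and were matched by symbol for 9 members. The stretches of PMAIP1 and BBC3 below end before the first annotated transcript. That of BCL2A1, kept to 30 bases, lies before its RefSeq start site but inside the gene as annotated in GENCODE 29. All 3 stretches read 5′ to 3′ on the gene's own strand. Capitals mark matches to the searched motifs.
PMAIP1: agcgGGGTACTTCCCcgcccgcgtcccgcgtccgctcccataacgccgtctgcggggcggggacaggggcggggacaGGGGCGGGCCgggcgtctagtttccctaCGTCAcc
BBC3: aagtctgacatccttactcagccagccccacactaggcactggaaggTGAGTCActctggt
BCL2A1: atattataaagTGATGCAAacagaaattcc
The stretch of PMAIP1 is chr18:59899836-59899947 on the plus strand, that of BBC3 chr19:47232767-47232827 on the minus strand and that of BCL2A1 chr15:79971241-79971270 on the minus strand. Both strands were searched. The window of PMAIP1 held the CRE core TGACG on the opposite strand, a motif found in 24.6% of 35116 windows, and the NF-kB pattern GGGNNNNNCC, found in 58.7%, with a pair of overlapping matches on opposite strands and a separate match nearer the start. BBC3 held the AP-1 motif TGANTCA, found in 7.71% of windows, and also the NF-kB pattern, outside the stretch shown. BCL2A1 held the ATF4 and C/EBP composite motif TGATGNAA, found in 3.62%, and was the only member with it. A p53 half-site, found in 6.63% of windows, was met only in the window of BAK1, and a retinoic acid half-site repeat spaced by 5 bases, found in 0.342%, in none of the members' windows. Among members not called, the CRE core was also met in windows of BCL2, BCL2L1 and BAX. The NF-kB pattern was also met in those of BCL2, BAK1, BCL2L11 and BID. All of these matches describe letters and not bound sites.

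In BHT-101 the siRNA left more CRABP2, and no member moved by the size rule. Of 8 measured members 0 were called, beside 0.589% of 12055 genes higher and 0.539% lower. BID had 943 and 911 reads (log2 read ratio 0.27, interval 0.14 to 0.41), BAK1 738 and 660 (0.16, interval 0.01 to 0.32) and BAX 6050 and 4267 (-0.18, interval -0.24 to -0.12). BBC3, called higher in FTC-133, stood at 608 and 422 reads here (-0.20, interval -0.39 to -0.02). PMAIP1 had 7248 and 6145 reads and a ratio of 0.09 (interval 0.04 to 0.13), and MCL1, a protective member, had 10268 and 8778 and a ratio of 0.10 (interval 0.06 to 0.14). BCL2L1 and BCL2L11 had intervals that included 0. There were 4 members above 0 and 4 below, with a median of 0.04 beside 0.01 over all genes.

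Raising CRABP2 in 8505C left all members within the size rule as well, with 0 of 9 called beside 1.85% of 11731 genes higher and 1.86% lower. The differences were nevertheless wider than in BHT-101, with 7 members above 0, 2 below and a median of 0.28 beside 0.02 over all genes. MCL1, with 22738 reads under the empty vector and 31704 under the CRABP2 vector, had a log2 read ratio of 0.53 (interval 0.50 to 0.55). BAK1 had 432 and 637 reads (0.61, interval 0.43 to 0.79). BID had 539 and 709 (0.44, interval 0.28 to 0.61) and BCL2L1 2881 and 3385 (0.28, interval 0.21 to 0.35). Members of both roles were thus among those with more reads. On the other side stood the BH3-only genes BCL2L11, with 685 and 439 reads (-0.59, interval -0.77 to -0.42), and BBC3, with 103 and 64 (-0.64, interval -1.11 to -0.17). BAX and BCL2A1 had intervals that included 0.

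PMAIP1 had 2855 and 3897 reads in 8505C, a log2 read ratio of 0.50 (interval 0.43 to 0.57). Its log2(FPKM + 1) difference of 0.49 was 0.30 once a trend on GC content and length was removed. PMAIP1 and BCL2 both lie on chromosome 18, and in this line chromosome 18 genes of at least 5 FPKM had a median difference of 0.46, with 81 of 86 above 0, beside 0.03 over all such genes. Within 5 Mb of PMAIP1 the median was 0.54, with 13 of 14 genes above 0. The difference of PMAIP1 was close to that median. The same chromosome medians were 0.07 in BHT-101 and 0.07 in FTC-133, where PMAIP1 differed by 0.08 and 1.29. Proliferation markers summed to 56.9 and 76.3 FPKM in 8505C, of which PCNA gave 49.1 and 57.8. Of the 5 markers, 3 reached 1 FPKM under the empty vector and 4 under the CRABP2 vector, with CDK1 at 0.724 and 5.31. The part of chromosome 18 or of proliferation in the members' values was not tested.

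**Figure D3:**
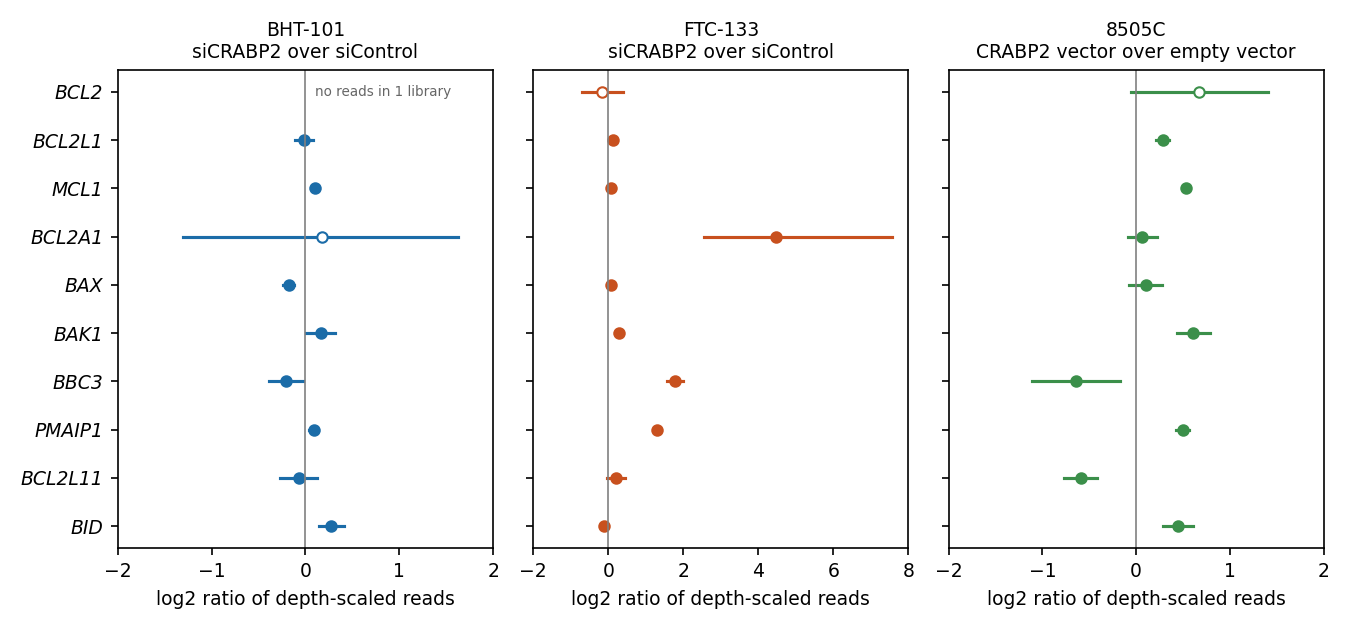
Log2 ratio of depth-scaled reads in the siCRABP2 over the siControl library (BHT-101, FTC-133) or the CRABP2 vector over the empty vector library (8505C), with exact 95% counting intervals. The x axis of FTC-133 is wider than the others, and open circles mark genes under 1 FPKM in both libraries. BBC3 lies at 1.78 in FTC-133 and left of 0 in BHT-101. It also lies left of 0 in 8505C, where the treated library is the one with more CRABP2.

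No member passed a test of siCRABP2 or of CRABP2 arm taken over several lines. In the 4 siRNA libraries, with the cell line as a block, limma called 0 of 8 tested members and 0% of 12953 genes in either direction. At an unadjusted p under 0.05, 314 genes were higher and 225 lower with siCRABP2. BCL2A1, which differed by 0.05 in BHT-101 and 1.53 in FTC-133, did not pass the filter of this fit. Among the 8 tested members PMAIP1 had the largest mean difference at 0.69 (SE 0.28, adjusted p = 0.869, limma). That mean was made of 0.08 in BHT-101 and 1.29 in FTC-133. BBC3 followed at 0.66 (SE 0.38, adjusted p = 0.869, limma), made of -0.18 and 1.49. Both means thus came mainly from FTC-133, and without that line the difference of BBC3 was -0.18.

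Over all 6 libraries, the lower CRABP2 arm (siCRABP2 and empty vector) was set against the higher arm (siControl and CRABP2 vector). Again limma called 0 of 9 tested members and 0% of 11628 genes in either direction, with 193 genes higher and 179 lower at an unadjusted p under 0.05. BBC3 was at 0.55 (SE 0.29), BCL2A1 at 0.50 (SE 0.30) and PMAIP1 at 0.29 (SE 0.31), each with adjusted p = 0.999 in limma. Without FTC-133, BBC3 was at 0.08 and PMAIP1 at -0.20. The siRNA fit leaves 1 residual degree of freedom and the arm fit 2.

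The balance between the sides of the family differed mainly between cell lines and, within FTC-133, in the PMAIP1 term. The summed FPKM of death-promoting members was 2.15 and 2.04 times that of the protective members in BHT-101, 1.97 and 3.04 times in FTC-133, and 0.281 and 0.274 times in 8505C. Both 8505C libraries were below 1 and the other 4 above it. The protective sum was 106 and 112 FPKM in BHT-101, 81.4 and 88.6 in FTC-133, and 301 and 411 in 8505C. The effectors summed to 95.6 and 87.2, 69.2 and 77.7, and 17.4 and 22.6 FPKM in the same order. The BH3-only members summed to 133 and 141, 91.4 and 192, and 67.1 and 90.1 FPKM.

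Within a line the log2 ratio of the sums differed by -0.08 in BHT-101, 0.62 in FTC-133 and -0.04 in 8505C. Without MCL1 and PMAIP1, the top member of each side, the FTC-133 difference was -0.05, and with the mean of log2(FPKM + 1) in place of sums it was 0.10. The value of 0.62 thus rests on this pair of genes, of which MCL1 differed by 0.08 and PMAIP1 by 1.29. The ratio of PMAIP1 to MCL1, a BH3-only member and its known partner, was 1.38 and 1.37 in BHT-101, 1.07 and 2.50 in FTC-133, and 0.246 and 0.240 in 8505C. The ratio of BAX to BCL2L1 was 3.83 and 3.41, 1.89 and 1.83, and 0.233 and 0.206. RNA sums say nothing of protein levels or of binding, and no test was made of these ratios.

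**Figure D4:**
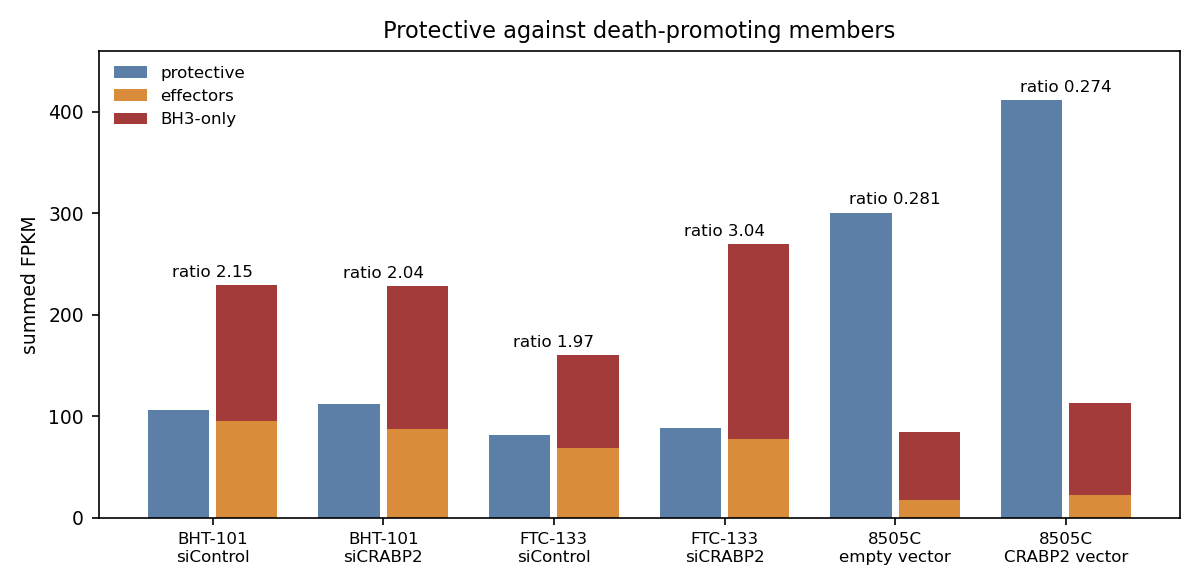
Summed FPKM of the 4 protective members (left bar) and of the 6 death-promoting members (right bar, effectors and BH3-only stacked) in each library, with the ratio of the death-promoting to the protective sum above. The ratio is above 1 in the 4 siRNA libraries, highest at 3.04 in FTC-133 with siCRABP2, and below 1 in both 8505C libraries.

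Genes with a pattern like that of the 3 members of widest range were sought over the 6 libraries by the root mean square difference of centred log2(FPKM + 1). For BCL2A1 the nearest were FST (0.34), IL24 (0.40) and HCLS1 (0.44). Like BCL2A1, FST was listed at 0.0130 and 0.0651 FPKM in BHT-101, 0.454 and 1.90 in FTC-133, and 38.1 and 42.1 in 8505C. For BAX they were IER5L (0.12), PARP12 (0.12) and IGDCC4 (0.15), all highest in BHT-101 and lowest in 8505C. For BBC3 they were TRIM16L (0.23), PIM3 (0.24) and EML2 (0.25). Of these, TRIM16L was listed at 7.44 and 14.7 FPKM in FTC-133, where BBC3 was at 2.88 and 9.89. The 6 libraries share 3 lines, so such likeness is a description.

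The rest of the pathway was followed in 6 lists with 75 entries, and 3 of their genes were called by size within a line. In FTC-133 these were 2 of 63 measured genes, both higher, beside 2.36% of all 12832 genes higher and 2.35% lower. In 8505C it was 1 of 59, which was lower, beside 1.85% of all 11731 genes higher and 1.86% lower. Counts this small are near these shares and are not read as a result about the lists. In FTC-133, TNF, a ligand that can start death receptor signalling, had 11 reads with siControl and 79 with siCRABP2 (0.264 and 1.73 FPKM, log2 read ratio 2.71, interval 1.80 to 3.77). TNF counted as measured in this line only through the siCRABP2 library, where it was high, so it could not have been called lower. DDIT3, a stress-induced transcription factor known to act on BBC3 and BCL2L11, was at 8.69 and 50.9 FPKM (2.55, interval 2.37 to 2.73). In 8505C, HUWE1, a ubiquitin ligase for MCL1, stood at 38.4 FPKM under the empty vector and 14.5 under the CRABP2 vector (-1.41, interval -1.45 to -1.36). No listed gene was called in BHT-101. These calls depend on the scale. With a pseudocount of 0.1, 5 of 63 measured genes were called in FTC-133, adding HRK, BMF and TRIM2. In 8505C 3 of 59 were called, adding BIRC5 and USP9X. The share of all genes called at that pseudocount is not given here. HRK and BIRC5 counted as measured only through the library of their line in which they were high.

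In the list of other BCL2 family genes, 9, 8 and 8 of 13 were measured in BHT-101, FTC-133 and 8505C and 0 were called on the log2(FPKM + 1) scale. Their medians were 0.0006, -0.14 and 0.17, beside 0.01, -0.04 and 0.02 over all measured genes. HRK, a BH3-only gene, had 35 and 232 reads in FTC-133, a log2(FPKM + 1) difference of 0.90, under the size rule, that was 2.14 with a pseudocount of 0.1. BMF, another BH3-only gene, was at 13.4 and 10.4 FPKM in BHT-101, 2.33 and 1.01 in FTC-133, and 3.24 and 6.08 in 8505C. Its differences of -0.34, -0.73 and 0.74 were under the rule, but in FTC-133 the difference was -1.13 with a pseudocount of 0.1, and the log2 read ratio was -1.20 (interval -1.49 to -0.92). The protective gene BCL2L2 was at 10.9 and 16.8 FPKM in FTC-133 and at 21.3 and 14.4 in 8505C. BIK stood at 20.0 and 14.9 FPKM in BHT-101.

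Of the 19 apoptosome, caspase and mitochondrial genes, 18, 18 and 15 were measured, with 0 called and medians of 0.07, 0.07 and 0.08. CASP6, an effector caspase, was at 14.7 and 9.75 FPKM in FTC-133, and CYCS, which encodes cytochrome c, at 34.1 and 43.7 in 8505C. Of 8 inhibitors of apoptosis, 7, 6 and 6 were measured, with 0 called and medians of 0.04, -0.03 and -0.07. BIRC3 was at 7.46 and 11.1 FPKM in BHT-101 and BIRC5, a mitotic gene also known as survivin, at 0.241 and 1.32 in 8505C.

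Among the 12 death receptor and adaptor genes, 10, 9 and 8 were measured, TNF in FTC-133 was the 1 call, and the medians were 0.07, 0.17 and 0.03. TNFRSF10B, a receptor of the ligand TRAIL, was at 18.1 and 35.4 FPKM in FTC-133, a difference of 0.93. TNFSF10, which encodes TRAIL, was at 6.53 and 11.0 FPKM in BHT-101. Of 14 transcription factors known to act on the family, 13 were measured in each line, DDIT3 in FTC-133 was the 1 call, and the medians were -0.04, -0.09 and -0.02. ATF4, which acts upstream of DDIT3, was at 89.2 and 168 FPKM in FTC-133, a difference of 0.90. JUN was at 59.5 and 37.9 FPKM in BHT-101 and at 13.1 and 25.2 in 8505C, and MYC at 19.1 and 36.2 in 8505C.

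All 9 genes of MCL1 and BIM protein turnover were measured in each line, HUWE1 in 8505C was the 1 call, and the medians were -0.02, -0.03 and -0.10. USP9X, which removes ubiquitin from MCL1, was at 31.7 and 15.5 FPKM in 8505C, a difference of -0.99. FBXW7, another part of a ligase for MCL1, was at 2.51 and 1.40 FPKM there. AURKA, at 3.77 and 6.70 FPKM, and TRIM2, at 6.74 and 9.87, lay the other way, with differences of 0.69 and 0.49. In the same line MCL1 RNA was at 228 and 328 FPKM. In the fit of the 4 siRNA libraries and in that of the CRABP2 arms over all 6, limma called no gene of the 6 lists. The contrasts between lines did call listed genes.

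**Figure D5:**
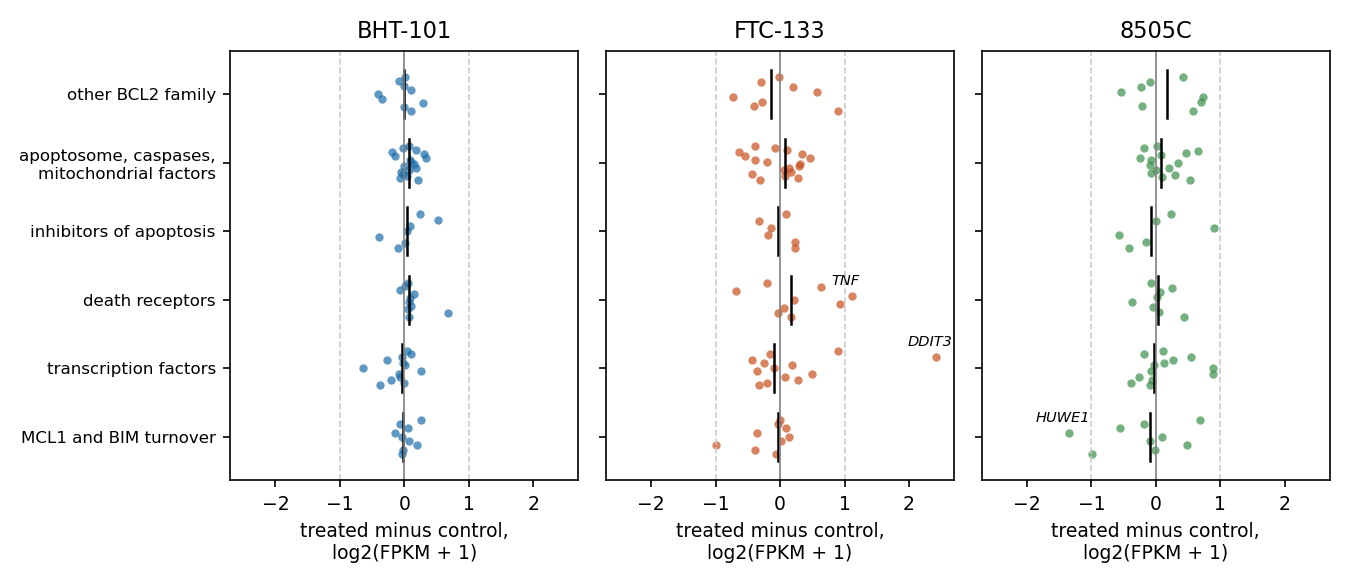
Difference of log2(FPKM + 1) between the treated and the control library of each line for the measured genes of 6 lists. Each dot is a gene, black bars are list medians and dashed lines mark the size rule of 1. TNF and DDIT3 in FTC-133 and HUWE1 in 8505C are the only genes past it on this scale.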

How the data were processed

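RNA was sequenced from 6 libraries, 1 per condition. The authors deposited 1 table of FPKM values. The submitters' processing notes name FastQC, Trimmomatic 0.38, featureCounts 2.0.0 and the build GRCh38. The sources used here do not name the aligner, annotation or strand setting. Of 58884 identifiers, 58876 were named, 58611 of them by GENCODE 29, whose lengths gave whole reads for 74.9% of 33848 expressed genes at a tolerance of 0.001. That release may not be the authors'. Exon lengths of BCL2A1, BCL2L11 and CRABP2 were found by search.

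The scale log2(FPKM + 1) shrinks the differences of genes with low values. A gene counted as measured in a line at 1 FPKM in 1 or both libraries and as called by size at a difference of 1. Across lines, limma 3.58.1 (R 4.3.3) was fitted with a variance trend to all genes of at least 1 FPKM in 2 of the 4 siRNA libraries, or 3 of all 6 for the CRABP2 arms, with the cell line as a block, or in 2 of 6 for pairs of lines. Libraries were paired by the line their labels name. Scripts were tested on simulated data. The members and lists were chosen with earlier results of these data known. The text names CRABP2, all members, up to 4 genes per list and line with the largest difference, every listed gene called by size, and the 3 most alike genes for the 3 members of widest range. Alternatives were other pseudocounts, scalings and filters, removal of a GC and length trend, fits without the block, and leaving out lines or libraries.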

Additional observations from a re-analysis of the deposited data

Results flagged for a closer look

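BBC3 differed in opposite ways in the 2 knockdown lines. In BHT-101 it had 608 reads with siControl and 422 with siCRABP2, a log2 read ratio of -0.20 (exact 95% counting interval -0.39 to -0.02). In FTC-133 it had 227 and 855, a ratio of 1.78 (interval 1.57 to 2.00). The ratio in FTC-133 minus that in BHT-101 was 1.99. Each line has 1 library per arm, so the difference was not tested. Counting intervals that leave out 0 were common among the members. In BHT-101 they lay above 0 for 4 of 8 measured members and below it for 2. In FTC-133 they lay above 0 for 6 of 9 and below it for 1. The share of all genes with such an interval is not given here.

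BID also lay on opposite sides of 0, by much less. Its log2 read ratio was 0.27 in BHT-101 (interval 0.14 to 0.41) and -0.10 in FTC-133 (interval -0.18 to -0.02), a difference of -0.38. This difference was not tested either.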

How the results depend on the processing

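The counts of members called by size within a line did not change under any setting run. Listed genes called numbered 2 in FTC-133 and 1 in 8505C, and ranged over these settings from 2 to 5 and from 1 to 3, with 5 and 3 at a pseudocount of 0.1 or as TPM and 0 throughout in BHT-101. The difference in the log2 ratio of death-promoting to protective sums did: with the mean of log2(FPKM + 1) it was -0.017 in BHT-101, 0.10 in FTC-133 and -0.12 in 8505C, and without the most abundant member of each side it was -0.046 in FTC-133 and 0.050 in 8505C. These settings use other weights by construction. Without the replicate block for the cell line, limma called 0 genes in the 4 siRNA libraries and 0 in the 6-library arm fit, with 11 genes higher and 11 lower, and 2 and 2, at an unadjusted p under 0.05. The block changed no call.

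Leaving out 1 line or library moved several values, and the cause was not tested. A line left with 1 library is assumed to vary like the others. Genes called between arms ranged from 0 to 10, and the 10 came without FTC-133. In BHT-101 minus FTC-133, 2906 to 6795 genes and 3 to 5 members were called. In BHT-101 minus 8505C, 5165 to 8979 genes and 4 to 6 members were called, and in FTC-133 minus 8505C 6638 to 7107 genes and 7 to 9 members. The sign turned for BBC3 in the siRNA fit (-0.18 to 1.49) and PMAIP1 in the arm fit (-0.20 to 0.69). In BHT-101 minus FTC-133 it turned for BCL2L1 (-0.044 to 0.075), BCL2A1 (-1.12 to 0.41), BBC3 (-0.56 to 0.93) and PMAIP1 (-0.41 to 0.88). It also turned for BAK1 in BHT-101 minus 8505C (-0.043 to 0.51) and PMAIP1 in FTC-133 minus 8505C (-0.039 to 1.25). None of these results passed its test with all libraries in the fit. Few reads limit BCL2 in all libraries and BCL2A1 outside 8505C.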

Other observations

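Several listed genes around the family differed between lines as sharply as the members. The genes in this paragraph were chosen after their values were seen. TRADD, an adaptor of the TNF receptor, had 1389 and 1171 reads in BHT-101 and 753 and 933 in FTC-133, and 0 in both 8505C libraries, where a count of 0 allows up to 3 reads in each. TNFRSF10D, a decoy receptor for TRAIL, was at 9.76 and 10.6 FPKM in BHT-101, 0.422 and 0.354 in FTC-133, and 32.1 and 31.0 in 8505C. BIK, a BH3-only gene, was at 20.0 and 14.9 FPKM in BHT-101 and below 1 in the other 4 libraries. BOK, an effector-like member, was at 5.82 and 6.30 FPKM in BHT-101 and 8.67 and 13.4 in 8505C, but at 0.225 and 0.288 in FTC-133. BIRC7, an inhibitor of apoptosis, was at 23.7 and 17.8 FPKM in BHT-101, 8.37 and 7.24 in FTC-133, and 0.198 and 0.175 in 8505C. In limma the difference of BHT-101 minus 8505C was 4.18 for BIRC7 (SE 0.18, adjusted p = 2.03e-05) and that of FTC-133 minus 8505C was -4.55 for TNFRSF10D (SE 0.13, adjusted p = 1.37e-05).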
